A study of Mus musculus with 12 samples.

Results

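The 10 genes described here encode proteins that coat the lipid droplets of a cell or that act in the breakdown of the triglyceride stored in them. They were taken by symbol as *Hilpda*, *G0s2*, *Pnpla2*, *Abhd5*, *Lipe*, *Mgll*, *Plin2*, *Plin3*, *Ces1d* and *Ddhd2*, 10 of the 53379 genes listed in the count table. Each symbol matched 1 row. Bone marrow-derived macrophages (BMDMs) were grown for 1 week from marrow of 4 C57Bl/6J mice in medium conditioned by L929 fibroblasts, a source of macrophage growth factor. The methods describe the donors of BMDMs as adult males. Each mouse gave an untreated culture and cultures that received fenoterol at 1 μM and were lysed 1 h or 4 h later without a change of medium, so that there were 3 groups of 4 libraries. Fenoterol is an agonist of the beta2-adrenergic receptor (B2AR), which raises cAMP and activates protein kinase A. The labels give 1 untreated library per mouse and no separate untreated culture for each time point, so that fenoterol and the hours passed in culture cannot be told apart.

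A lipid droplet is a core of triglyceride and cholesterol ester under a single layer of phospholipid and coat proteins. Lipolysis runs in steps: adipose triglyceride lipase (ATGL, the product of *Pnpla2*) removes a fatty acid from triglyceride, hormone-sensitive lipase (*Lipe*) acts on the diglyceride that is left, and monoglyceride lipase (*Mgll*) releases the last fatty acid. ABHD5 is the coactivator of ATGL, whereas HILPDA and G0S2 are small proteins that bind and inhibit it. PLIN2 and PLIN3 are perilipins, coat proteins found in most cell types, and a macrophage that loads lipid becomes a foam cell rich in PLIN2.

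Values are normalised counts, which are counts scaled to a common library size, and fold changes come from edgeR's quasi-likelihood test with p-values adjusted by the Benjamini-Hochberg method over all 12386 genes tested. A gene with an adjusted p under 0.05 is written as having passed, risen or fallen. The libraries held 14580533 to 24153284 counts, with a biological coefficient of variation of 0.112 among replicates. All 6 macrophage markers examined had at least 10 counts in every library. Of these 6, 1 passed at 1 h (16.7%, beside 20.1% of all genes tested) and 5 passed at 4 h (83.3%, beside 40.0%), in both directions: the log2 fold changes at 4 h were -1.51 for *Mertk*, -0.22 for *Cd68*, -0.21 for *Adgre1*, 0.42 for *Itgam* and 0.72 for *Fcgr1*. With mice as blocks *Lyz2* was lower as well (-0.19, adjusted p = 0.00256 in edgeR's test). Their summed level was 74209.8 to 80756 TPM (transcripts per kilobase of exon, scaled to the same sum in each library) before fenoterol, 64268 to 75683 after 1 h and 63758 to 72614 after 4 h, and the part of these markers in the results was not tested. Of 5 adipocyte markers 3 had no count in any library, and the summed level of the 5 was at most 0.197 TPM. Summed neutrophil markers lay between 103 and 192 TPM and summed fibroblast markers between 8.48 and 25.3, with ranges that overlapped between the 3 groups and their part in the results was not tested. In RNA from whole cultures, a lower level in every cell and fewer cells that carry the transcript cannot be told apart.

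*Hilpda*, the inhibitor of ATGL, showed the largest change of the 8 genes tested at both time points, so the sequence in front of it is shown first. The RefSeq promoter table for GRCm38.p6 has a window of 300 bases (250 before to 50 after a transcription start) for 8 of the 10 genes, 11 windows in all. Exact letters were searched on both strands: TGACG, which is the core of the cAMP response element (CRE) bound by CREB, the palindromic CRE TGACGTCA, which contains it, and ACGTG, the core of the hypoxia response element. The 250 bases before the upstream *Hilpda* start (chr6:29272238-29272487, plus strand, outside any annotated exon) hold 1 core of the CRE, read on the reverse strand 108 bases before the start and printed in capitals.

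Hilpda, upstream start: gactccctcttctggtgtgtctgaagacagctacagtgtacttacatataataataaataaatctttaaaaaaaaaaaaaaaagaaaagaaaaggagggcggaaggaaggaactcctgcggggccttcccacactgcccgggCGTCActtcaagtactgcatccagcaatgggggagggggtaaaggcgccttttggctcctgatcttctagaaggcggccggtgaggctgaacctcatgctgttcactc

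*Hilpda* has another start at position 29272626, and the 30 bases from 68 to 39 before it (chr6:29272558-29272587, inside an annotated exon) begin with a CRE core and end with a hypoxia core. Beside it stand stretches of 30 bases around the matches of 4 genes that changed at 4 h, with the matches in capitals. They are *Abhd5* (chr9:122351476-122351505, plus strand), *Lipe* (chr7:25396125-25396154, minus strand), *Mgll* (chr6:88724356-88724385, plus strand) and *Plin2* (chr4:86670046-86670075, minus strand). The *Abhd5* stretch lies outside any annotated exon. All 30 bases of the *Lipe* and *Mgll* stretches and 15 of the 30 of *Plin2* lie inside annotated exons. In *Lipe*, *Mgll* and *Plin2* the hypoxia core overlaps its own reverse complement in the palindrome CACGTG, also known as an E-box. In *Plin2* it begins 4 bases before the start and runs across it.
Hilpda, downstream start: TGACGcagggctggatggccagcggACGTG
Abhd5: acacgggcggaaTGACGcattaatggtcat
Lipe: aacagggacgacCACGTGagggggcggagg
Mgll: gggggccgggcaCACGTGgggccccggcgc
Plin2: cagctgggctatCACGTGgctcggaggctt

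The palindromic CRE was in 0 of the 11 windows, against 1.79% of the 32851 windows of all genes. The CRE core was in 5 of the 11 windows, those of *Hilpda* (both), *G0s2*, *Abhd5* and 1 of the 2 of *Mgll*, where it lies after the start, against 20.8% of all windows. The 2 *Hilpda* windows overlap and share 1 CRE core, 108 bases before the upstream start and 246 before the downstream one. These windows are therefore not separate. By gene, 4 of the 8 genes with a window held the CRE core, whereas the 20.8% counts windows. The hypoxia core was also in 5 of the 11 windows, and 19.6% of all windows hold it. CACGTG was in 3 of the 11 windows and in 7.15% of all windows. The windows of *Pnpla2* and *Plin3* held none of these letters. A match is a description of the sequence and no evidence of binding.

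Per transcript length, the droplet coat and ATGL were the most abundant of the 10 transcripts in untreated BMDMs. Levels here are counts per exon length, scaled so that all genes of a library have the same sum, and are written as TPM. *Plin2* stood at 725 ± 15.6 TPM (SD, n = 4 mice), above 99.3% of the genes with counts. *Pnpla2* followed at 189.6 ± 11.4 and *Plin3* at 96.7 ± 5.41. These 3 levels did not overlap with each other or with any lower gene in any untreated library.

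A group of 3 lipolysis genes lay close together below them. *Ddhd2*, which encodes a triglyceride hydrolase best known from neurons, was at 26.7 ± 1.37 TPM, *Lipe* at 26.1 ± 2.62 and *Abhd5* at 22.9 ± 1.25. Their order changed from library to library, and with the longest transcript as the length it became *Ddhd2* (35.1), *Abhd5* (33.7) and *Lipe* (32.3), so these neighbours were not separated. *Hilpda* was the seventh at 15.4 ± 2.27 and *Mgll* the eighth at 3.19 ± 0.791, with the same place in all 4 untreated libraries.

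The other inhibitor of ATGL was close to absent. *G0s2* had 3, 3, 2 and 1 counts in the untreated libraries of mice 1 to 4, 1, 8, 0 and 2 counts at 1 h, and 5, 3, 0 and 4 counts at 4 h. That is 32 counts among the 235324133 of the 12 libraries, too few to test, and a change of *G0s2* was not detectable at this depth. *Ces1d*, a carboxylesterase that hydrolyses triglyceride in liver and fat, had 0 counts in all 12 libraries, which allows a level of up to 0.0127 CPM over their sum. This limit covers counting error only.

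**Figure D1:**
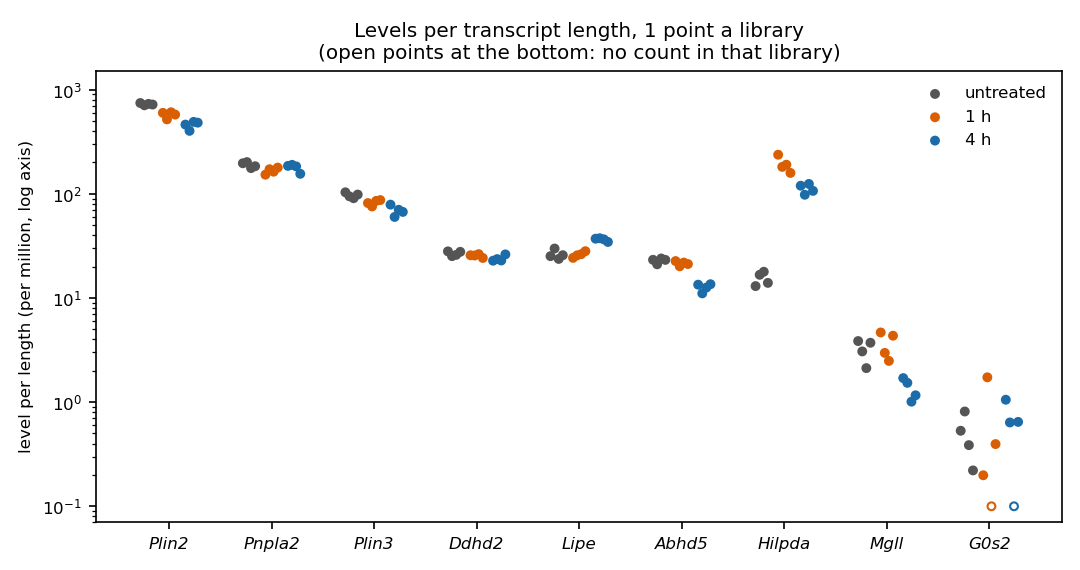
Level per exon length (TPM, log axis) of 9 of the 10 genes, 1 point per library, in untreated BMDMs (grey) and after fenoterol for 1 h (orange) or 4 h (blue); *Ces1d* had no count and is left out. *Plin2* is at the top in every library, and *Hilpda* moves from 15.4 in untreated BMDMs to 192 at 1 h, beside *Pnpla2*.

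At 1 h, 2 of the 8 genes tested passed the threshold, where 20.1% of all genes tested did, 10.0% higher and 10.1% lower. *Hilpda* rose and *Plin2* fell. The median log2 fold change of the 8 was -0.014, beside -0.0049 for all genes. Groups did not overlap for 3 of the 8 (*Hilpda*, *Plin2* and *Plin3*), against 23.0% of all genes.

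At 4 h, 7 of the 8 genes passed, 2 of them higher (*Hilpda* and *Lipe*) and 5 lower (*Mgll*, *Abhd5*, *Plin2*, *Plin3* and *Ddhd2*), where 40.0% of all genes tested did, 19.7% higher and 20.4% lower. *Pnpla2* did not pass at either time point. The median log2 fold change of the 8 was -0.34, beside 0.0042 for all genes, and groups did not overlap for 6 of the 8, against 37.6% of all genes. Both comparisons use the same 4 untreated libraries.

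**Figure D2:**
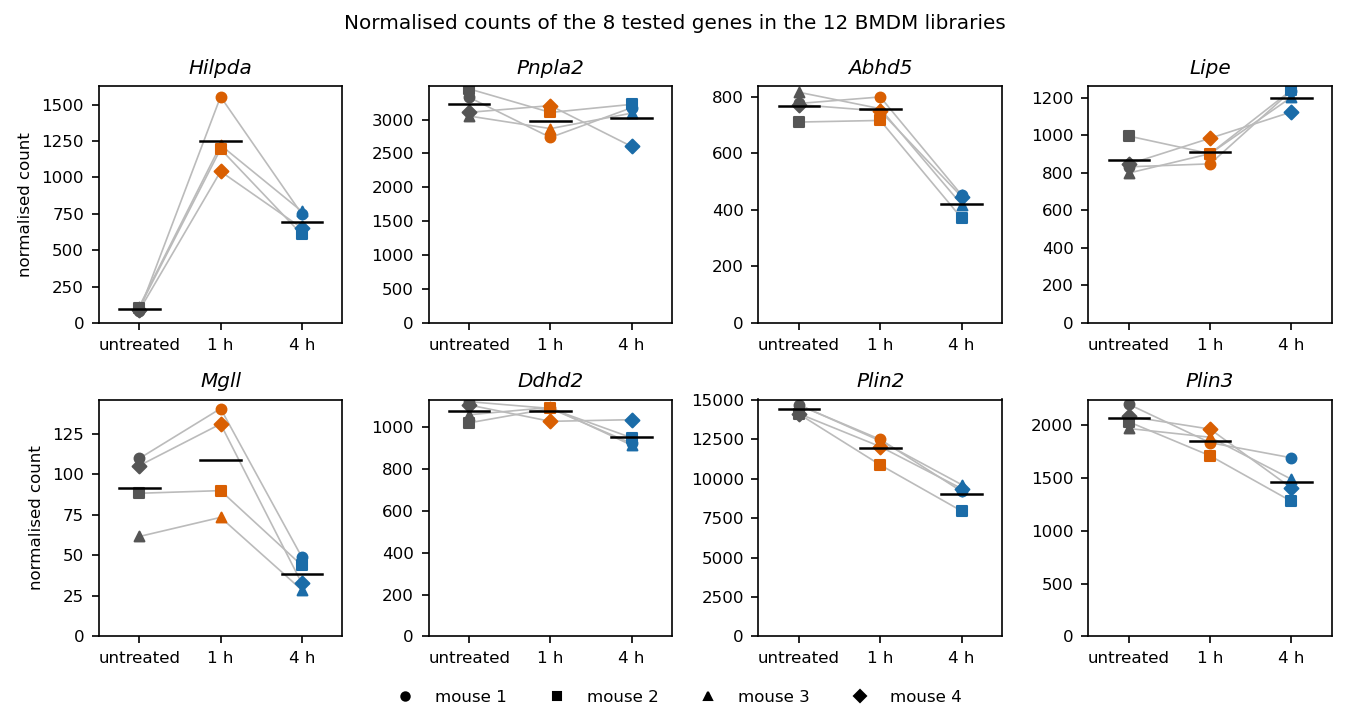
Normalised counts (linear axes from 0) of the 8 tested genes in untreated BMDMs and after fenoterol for 1 h or 4 h; each point is a library, its shape the mouse, grey lines join the libraries of a mouse and black bars are group means. *Hilpda* is high in all 8 treated libraries, whereas *Abhd5* and *Mgll* are low in the 4 h libraries alone.

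*Hilpda* (ENSMUSG00000043421, chr6:29272488-29275446 of GRCm38, plus strand) held 80.5, 104, 113 and 86.1 normalised counts in the untreated libraries of mice 1 to 4. At 1 h it held 1555, 1195, 1222 and 1041, and at 4 h 748, 608, 767 and 652. Every treated library was above every untreated one, and every 4 h library was below every 1 h library. The rise at 1 h was 13.1-fold (log2 fold change 3.71, standard error 0.14, adjusted p = 8.41e-11 in edgeR's quasi-likelihood test), the 50th smallest p among the genes tested. At 4 h it was 7.26-fold (log2 fold change 2.86, standard error 0.14, adjusted p = 1.17e-09 in edgeR's test). Mouse 1 had the lowest untreated and the highest 1 h value, and the log2 change per mouse at 1 h ran from 3.43 to 4.26.

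*Pnpla2* (ENSMUSG00000025509, chr7:141455198-141460743, plus strand), which encodes the lipase that HILPDA inhibits, held 3328, 3453, 3053 and 3107 normalised counts in untreated BMDMs of mice 1 to 4. It held 2736, 3105, 2867 and 3206 at 1 h and 3176, 3225, 3095 and 2603 at 4 h. The 3 groups overlapped. Its log2 fold change was -0.12 at 1 h (95% interval -0.29 to 0.048, adjusted p = 0.312 in edgeR's test) and -0.097 at 4 h (95% interval -0.26 to 0.070, adjusted p = 0.327).

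The coactivator *Abhd5* (ENSMUSG00000032540, chr9:122351608-122381524, plus strand) held 777, 711, 816 and 772 normalised counts in untreated BMDMs and 799.8, 717, 758 and 750.1 at 1 h. At 4 h it held 453, 371, 419 and 447. The untreated and 1 h libraries overlapped, and all 4 h libraries lay below both. At 4 h *Abhd5* was at 0.549 times its untreated level (log2 fold change -0.86, standard error 0.07, adjusted p = 1.68e-07 in edgeR's test), and at 1 h its log2 fold change was -0.026 (95% interval -0.18 to 0.13, adjusted p = 0.855). A gene on the other strand, *A730085K08Rik*, overlaps 16.0% of the exon bases of *Abhd5* and had 0 counts in every library.

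**Figure D3:**
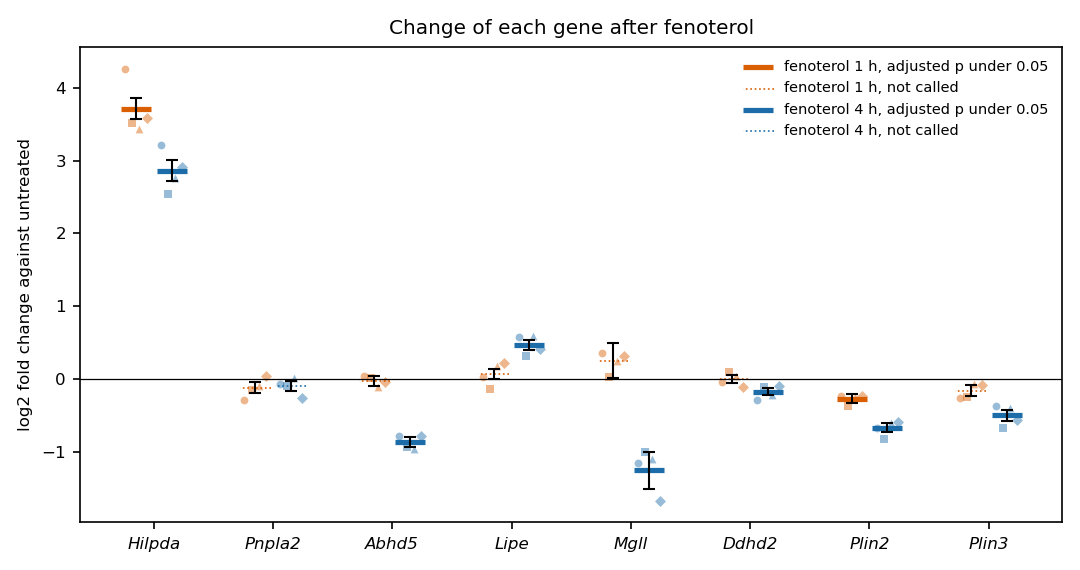
Log2 fold change against untreated BMDMs at 1 h (orange) and 4 h (blue); bars are the edgeR estimates with standard errors, thick where the adjusted p was under 0.05 and dotted where it was not, and pale points are the 4 mice (log2 of normalised counts plus 0.5, shape as in the plot of counts). *Hilpda* stands apart at 3.71 and 2.86, *Lipe* is the only other gene above 0 that passed at 4 h, and both *Pnpla2* bars are dotted.

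*Lipe* (ENSMUSG00000003123, chr7:25379527-25398710, minus strand), for hormone-sensitive lipase, held 832, 996, 799 and 847 normalised counts in untreated BMDMs of mice 1 to 4 and 848, 902, 902 and 985 at 1 h. At 4 h it held 1238, 1241, 1203 and 1125. Every 4 h library was above all others, and the fitted rise from untreated BMDMs was 1.39-fold (log2 fold change 0.47, standard error 0.07, adjusted p = 8.09e-05 in edgeR's test). At 1 h the log2 fold change was 0.069 (adjusted p = 0.578 in edgeR's test). *4732471J01Rik* overlaps 15.6% of the exon bases of *Lipe* on the other strand and had 1 to 7 counts a library, at most 0.662% of those of *Lipe* in any group. Whether strand was used in the counting is not stated in the sources used here.

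*Mgll* (ENSMUSG00000033174, chr6:88724412-88828360, plus strand), for monoglyceride lipase, was the least abundant gene tested. It held 109.9, 88.4, 61.7 and 105 normalised counts in untreated BMDMs, 141, 90.01, 73.5 and 131 at 1 h, and 49.0, 43.8, 28.7 and 32.7 at 4 h. Mice 1 and 4 were above mice 2 and 3 both untreated and at 1 h, and all 4 h libraries lay below all others. The fall at 4 h was to 0.419 times the untreated level (log2 fold change -1.25, standard error 0.26, adjusted p = 0.00121 in edgeR's test). At 1 h all 4 mice were higher than untreated, by 0.026 to 0.36 on the log2 scale, but the log2 fold change (0.25, standard error 0.24) did not pass (adjusted p = 0.539 in edgeR's test). With mice as blocks its standard error was 0.15, and it did not pass either (adjusted p = 0.235 in edgeR's blocked fit).

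*Ddhd2* (ENSMUSG00000061313, chr8:25725346-25754596, minus strand) held 1123, 1022, 1060.2 and 1107 normalised counts in untreated BMDMs, 1090.4, 1090.3, 1095 and 1029 at 1 h, and 923, 950.1, 915 and 1037 at 4 h. The 4 h library of mouse 4 overlapped the untreated libraries. The log2 fold change at 4 h was -0.17 (standard error 0.05, adjusted p = 0.0188 in edgeR's test), the smallest of those that passed. It no longer passed without the untreated library of mouse 1 (adjusted p = 0.0568 in edgeR's test), the 4 h library of mouse 1 (0.0528) or that of mouse 3 (0.0579), nor without the filter on low counts (0.0864).

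Both coat genes fell by 4 h. *Plin2* (ENSMUSG00000028494, chr4:86648386-86670060, minus strand) held 14664, 14099.7, 14688 and 14124 normalised counts in untreated BMDMs of mice 1 to 4. It held 12493, 10875, 12402 and 12036 at 1 h and 9199.9, 7956, 9628 and 9377 at 4 h. The 3 groups were separate and in the same order in every mouse, with mouse 2 the lowest at each time after fenoterol. *Plin2* was at 0.83 times its untreated level at 1 h (log2 fold change -0.27, standard error 0.06, adjusted p = 0.0074 in edgeR's test). At 4 h it was at 0.628 times that level (log2 fold change -0.67, standard error 0.06, adjusted p = 9.68e-07 in edgeR's test). *Gm12551*, a gene that shares 2.57% of the runs of 50 bases in *Plin2* transcripts, had 0 to 3 counts a library.

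*Plin3* (ENSMUSG00000024197, chr17:56277476-56292873, minus strand) held 2196, 2029.9, 1967 and 2082 normalised counts in untreated BMDMs, 1833, 1709, 1884 and 1961 at 1 h, and 1689.95, 1279, 1487 and 1405 at 4 h. All 1 h libraries were below all untreated ones, by a margin of 1961 against 1967, and all 4 h libraries were below both. At 4 h *Plin3* was at 0.708 times its untreated level (log2 fold change -0.50, standard error 0.08, adjusted p = 9.55e-05 in edgeR's test). At 1 h its log2 fold change (-0.16, standard error 0.08) did not pass (adjusted p = 0.160 in edgeR's test). With mice as blocks the standard error was 0.06 and the adjusted p 0.0539 in edgeR's test, just above the threshold. With scaling by library size only the log2 fold change was -0.23, with an adjusted p of 0.0395 in edgeR's test.

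Between the time points, 7 of the 8 genes differed, 1 higher at 4 h and 6 lower, where 38.5% of all genes tested did, 18.7% higher and 19.8% lower. *Hilpda* fell by 0.85 on the log2 scale from 1 h to 4 h (standard error 0.12, adjusted p = 5.41e-05 in edgeR's test), to 0.554 times its 1 h level. *Mgll* changed most, at -1.51 on the log2 scale (standard error 0.25, adjusted p = 0.000307 in edgeR's test), and *Abhd5* stood at -0.84 (standard error 0.07, adjusted p = 3.40e-07), close to *Hilpda*.

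*Plin2* and *Plin3* were lower at 4 h than at 1 h by log2 fold changes of -0.40 (adjusted p = 0.000175 in edgeR's test) and -0.33 (adjusted p = 0.00294). *Lipe* was higher by 0.40 (adjusted p = 0.000398 in edgeR's test). *Ddhd2* was lower by -0.17 (adjusted p = 0.0219 in edgeR's test), which did not pass with scaling by library size only (adjusted p = 0.300), without the filter on low counts (0.0894), or without the 1 h library of mouse 2 (0.0511), the 4 h library of mouse 1 (0.0588) or that of mouse 3 (0.0653). Over all alternatives the log2 fold change of *Ddhd2* between times ran from -0.21 to -0.077. *Pnpla2* had a log2 fold change of 0.022 (95% interval -0.15 to 0.19, adjusted p = 0.852 in edgeR's test). The median of the 8 was -0.37, beside 0.0074 for all genes, and groups did not overlap for 6 of the 8, against 35.9% of all genes.

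Ratios of levels per length within a library set the transcripts of the inhibitor and the coactivator beside that of the lipase. They do not depend on scaling between libraries and were not tested. The ratio of *Hilpda* to *Pnpla2* was 0.0662, 0.0828, 0.101 and 0.0758 in the untreated libraries of mice 1 to 4. It was 1.56, 1.05, 1.17 and 0.889 at 1 h and 0.645, 0.516, 0.678 and 0.686 at 4 h. At 1 h the *Hilpda* transcript was above that of *Pnpla2* in 3 of 4 libraries, also with the longest transcript as length (0.868 to 1.52). The groups did not overlap. Protein was not measured in these libraries.

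The means (± SD, n = 4 mice) were 0.0815 ± 0.0148 before fenoterol, 1.17 ± 0.283 after 1 h and 0.631 ± 0.0787 after 4 h. The ratio of *Abhd5* to *Pnpla2* was 0.121 ± 0.0132 before fenoterol, 0.129 ± 0.0147 after 1 h and 0.0716 ± 0.0119 after 4 h, and the 4 h libraries (0.0584 to 0.0871) lay below all others. *G0s2* to *Pnpla2* ran from 0 to 0.0101 in single libraries, the highest from the 8 counts of mouse 2 at 1 h. The ratio of the coat transcripts *Plin2* and *Plin3* was 7.51 ± 0.377, 6.98 ± 0.314 and 6.69 ± 0.581, and the groups overlapped, but at 4 h the ratio was below the untreated one in all 4 mice (from 7.2 to 5.87, 7.49 to 6.71, 8.05 to 6.98 and 7.31 to 7.19). With the longest transcript as length the ratio of *Plin2* to *Plin3* was higher (13.5, 12.5 and 12.0), as was that of *Abhd5* to *Pnpla2* (0.199, 0.212 and 0.117), so the size of these ratios depends on the length chosen. A gene has the same length in every library, so the fold change of a ratio between groups is the same by construction with either length.

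**Figure D4:**
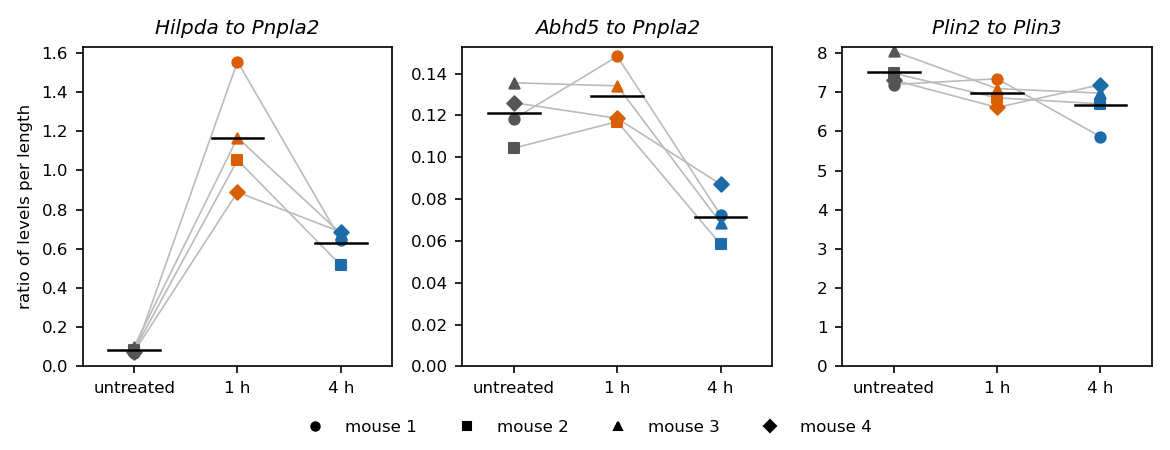
Ratio of levels per length in each library (linear axes from 0), with shapes for mice, grey lines joining the libraries of a mouse and black bars for group means. *Hilpda* to *Pnpla2* moves from a mean of 0.0815 to 1.17 at 1 h and 0.631 at 4 h, *Abhd5* to *Pnpla2* is low at 4 h alone, and *Plin2* to *Plin3* overlaps between groups but is lower at 4 h than untreated in each mouse.

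The transcripts most like each gene were looked up by Pearson's r of log2 CPM over the 12 libraries, which share mice and treatment, and no p is given. For *Hilpda* they were *Crem* (r = 0.992), an early target and modulator of cAMP signalling, *Dusp5* (0.990), a phosphatase of MAP kinases, and *Fos* (0.990), a subunit of AP-1. These rose more than *Hilpda* at 1 h, with log2 fold changes of 4.90, 6.72 and 4.13. For *Abhd5* they were *Sdcbp*, *Sirpa* and *Fmnl3* (r = 0.993, 0.992 and 0.992), with log2 fold changes at 4 h of -0.72, -1.34 and -1.61.

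For *Plin2* they were *Msrb2* (r = 0.985), *Ppfia4* (0.978) and *Plekha2* (0.975), all lower at both time points, and for *Plin3* they were *Vegfb* (0.974), *Gnl3* (0.971) and *Adam33* (0.970). *Lipe* was most like *Rnf40* (0.975), *Camta2* (0.972) and *Tor2a* (0.971), which had smaller log2 fold changes at 4 h than *Lipe*, from 0.24 to 0.34. *Mgll* was most like *Klf9* (0.963), *Exoc4* (0.948) and *Dirc2* (0.947), and *Ddhd2* like *Phactr2* (0.943), *Tlk1* (0.934) and *Pdlim5* (0.931).

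The other genes of droplets and lipases were read from 3 lists with 50 genes, of which 35 were tested. At 1 h, 7 of the 35 (20%) passed, 5 higher and 2 lower, beside 20.1% of all genes. With scaling by library size only 10 passed at 1 h, 3 higher and 7 lower, beside 2918 of all 12386 genes, 949 higher and 1969 lower. The balance of directions thus depended on the scaling, for these genes as for all genes. A fit with mice as blocks called 12 at 1 h, 8 higher and 4 lower, beside 27.0% of all genes in that fit. At 4 h 21 (60%) passed, 8 higher and 13 lower, beside 40.0% of all genes, and the blocked fit called 23, beside 47.4%. The median log2 fold change was 0.034 at 1 h and -0.056 at 4 h.

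Other coat genes were scarce. Of *Plin1*, *Plin4*, *Plin5*, *Cideb* and *Cidec*, only *Cideb* had enough counts to test, and it did not pass (log2 fold change -0.41 at 1 h and -0.37 at 4 h). *Plin1*, *Plin5* and *Cidec* are coat or fusion proteins of adipocytes and oxidative tissue, and had 0 counts in all 12 libraries.

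Among the other lipases, 12 of 20 were tested, and 3 (25%, beside 20.1% of all genes) passed at 1 h, all higher in the fit without blocks. They were *Nceh1*, the neutral hydrolase of cholesterol esters in macrophages (log2 fold change 0.41), *Dagla*, a diglyceride lipase (0.41), and the phospholipase *Pnpla8* (0.34), with adjusted p of at most 0.0415 in edgeR's test. With mice as blocks 6 (beside 27.0% of all genes) passed at 1 h, 4 higher and 2 lower. The added genes were *Lpl*, for secreted lipoprotein lipase (log2 fold change 0.24, adjusted p = 0.00234 in edgeR's blocked fit), *Daglb* (-0.17, adjusted p = 0.0449) and *Pnpla6* (-0.18, adjusted p = 0.0499). At 4 h 7 (58.3%, beside 40.0% of all genes) passed, 1 higher and 6 lower. *Nceh1* was still higher (0.22), whereas *Lpl* (-1.14), *Daglb*, another diglyceride lipase (-1.09), and *Lipa*, for lysosomal acid lipase (-1.03), had fallen, with adjusted p of at most 0.0174 in edgeR's test for these 4 genes.

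Of the genes of droplet formation 22 of 25 were tested, and 4 (18.2%, beside 20.1% of all genes) passed at 1 h. *Acsl3* and *Acsl4*, which activate fatty acids to acyl-CoA, rose (log2 fold changes 1.18 and 0.26). *Pcyt1a*, for the rate-limiting enzyme of phosphatidylcholine synthesis (-0.45), and *Spg20*, for spartin (-0.22), fell, with adjusted p of at most 0.0198 in edgeR's test for the 4 genes. With mice as blocks 6 of the 22 passed at 1 h, beside 27.0% of all genes, with *Rab3gap2* (0.17, adjusted p = 0.0332 in edgeR's blocked fit) and *Lpcat2* (0.17, adjusted p = 0.0236) added as higher. At 4 h 14 passed (63.6%, beside 40.0% of all genes), 7 higher and 7 lower. The blocked fit called 16 at 4 h, beside 47.4% of all genes, and added *Hsd17b11* (-0.12, adjusted p = 0.0367 in edgeR's test) and *Osbpl2* (-0.15, adjusted p = 0.0200) as lower. *Cav1*, for caveolin-1 (2.03, from a mean of 20.9 to 84.7 normalised counts), *Lpcat2* (0.79) and *Acsl4* (0.68) led the rises, and *Vps13c*, for a lipid transfer protein (-1.12), *Pcyt1a* (-0.93) and *Rab3gap2* (-0.87) the falls, all with adjusted p of at most 0.000386 in edgeR's test.

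Transcription factors known to control coat or lipase genes moved in both directions. Of 12 listed 11 were tested, and 5 (45.5%, beside 20.1% of all genes) passed at 1 h and 8 (72.7%, beside 40.0%) at 4 h. At 1 h *Cebpb* (log2 fold change 3.05), *Arnt* (0.82), *Hif1a* (0.43) and *Ppard* (0.38) were higher and *Cebpa* (-0.87) lower. At 4 h *Cebpb* (1.82), *Hif1a* (1.59) and *Arnt* (0.45) were higher, and 5 were lower, led by *Pparg* (-2.05), *Cebpa* (-1.46) and *Foxo3* (-0.63). The highest adjusted p among these was 0.00425 in edgeR's test. With mice as blocks 7 passed at 1 h, beside 27.0% of all genes, with *Epas1* higher (0.25, adjusted p = 0.0146 in edgeR's blocked fit) and *Rxra* lower (-0.24, adjusted p = 0.0104). At 4 h 9 passed in that fit, beside 47.4% of all genes, with *Epas1* lower in all 4 mice (-0.39, adjusted p = 0.000279 in edgeR's blocked fit). *Creb1*, which encodes the factor phosphorylated by protein kinase A, did not pass at either time point.

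**Figure D5:**
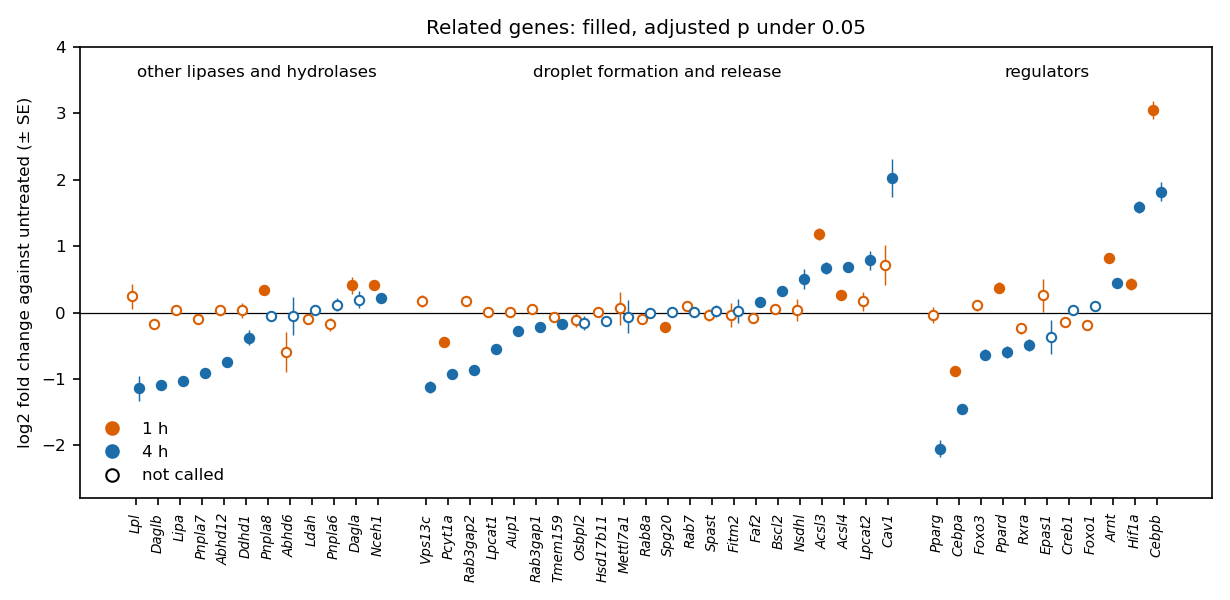
Log2 fold change with standard error of the tested lipases, droplet formation genes and regulators at 1 h (orange) and 4 h (blue), each list in the order of its 4 h values; filled points passed an adjusted p of 0.05. Among lipases 6 of the 7 filled 4 h points lie below 0, and *Cebpb* (3.05 at 1 h) and *Pparg* (-2.05 at 4 h) are the extremes among the regulators.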

How the data were processed

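The authors deposited raw read counts per gene, 1 column per library, not normalized. Per the labels and the paper's methods, stranded mRNA libraries were sequenced as single-end reads of 50 bases, mapped to GRCm38 with TopHat2 2.0.11 and counted with HTSeq 0.8.0. The strand option and annotation release are not given in the sources used here. Reads shared between genes may have been dropped in counting.

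Symbols, lengths and coordinates came from GENCODE M21, which matched 53274 of 53379 genes. Counts were filtered with filterByExpr, scaled by TMM and tested with edgeR 4.0.16 (R 4.3.3) in 1 quasi-likelihood fit of the 12 libraries, with a mean for each group and no covariate. Standard errors are the log2 fold change divided by the root of F, and 95% intervals use 9 residual degrees of freedom. In simulated counts for 1 h, 80 of 97 genes changed 2-fold and 97 of 98 changed 4-fold were recovered, with 13 false calls among 190, over 12258 genes. The simulated counts had no mouse effect, and no other tested gene was changed. In the real data 20.1% of genes passed at 1 h, so these rates need not hold there, nor for changes below 2-fold.

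The design text ties the libraries of a number to 1 mouse. Deviations from group means correlated at r = 0.290 to 0.561 for the same mouse (12 pairs) and -0.304 to 0.0912 for different mice (36 pairs). Between replicates, chi-square divided by its degrees of freedom was 9.66 to 20.1, so no library was a copy of another in its group.

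The genes and lists were chosen with earlier results of these data known. Besides the 10 genes, the text names the called genes of each list, up to the 3 largest changes in each direction at 1 h and 4 h, and the 3 most similar transcripts. *Ppard*, *Creb1*, the macrophage markers and the genes added by the mouse block were named after their values were seen. Alternatives were DESeq2 1.42.0, limma-voom and limma-trend (limma 3.58.1), RLE, library size only, no filter, a mean count of at least 50, only the 2 groups compared, a mouse block, an adjusted p under 0.01, the longest transcript as length, and each library left out. Figures were drawn with matplotlib 3.10.9.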

Additional observations from a re-analysis of the deposited data

Results flagged for a closer look

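The 1 h library of mouse 4 stood apart for *Ddhd2*, with 1028.79 normalised counts against 1090.3 to 1095 in the other 3 mice. The gap was 0.922 of the group's range, above Dixon's critical value for 4 samples. The rule was applied to 24 groups, of which chance marks about 1 in 20.

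The change against untreated BMDMs differed between 1 h and 4 h, by a direct test of 4 h against 1 h, for 7 of the 8 genes tested, where 38.5% of all genes tested did. The log2 difference was -0.85 for *Hilpda*, -0.84 for *Abhd5*, 0.40 for *Lipe*, -1.51 for *Mgll*, -0.40 for *Plin2*, -0.33 for *Plin3* and -0.17 for *Ddhd2*. For *Ddhd2* 3 of 4 mice showed this direction, and for the other 6 genes all 4 mice did.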

How the results depend on the processing

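Over 504 refits of single genes, 481 kept the direction and the side of the threshold. The counts of the 8 genes that passed ranged from 2 to 3 at 1 h, from 6 to 7 at 4 h and from 6 to 7 between the time points over all alternatives, and from 2 to 2, 6 to 7 and 6 to 7 with 1 library left out. The lower counts at 4 h and between times came from losses of *Ddhd2*, the higher count at 1 h from *Plin3*. The mouse block left these counts at 2, 7 and 7. Of the 35 related genes tested, 7 passed at 1 h, 12 with the replicate block of the mouse, 4 with an adjusted p under 0.01 and 5 to 8 with 1 library left out. At 4 h 21 passed, and 19 to 21 with 1 library left out. Between times 24 (68.6%) passed, 9 higher and 15 lower, beside 38.5% of all genes, and 21 to 25 with 1 library left out. Of all genes 2493 passed at 1 h, 1580 with an adjusted p under 0.01, 3348 with the mouse block and 2100 to 2482 with 1 library left out, and the ranges with 1 library left out were 4463 to 4976 at 4 h and 4209 to 4735 between times. The mouse block raised the counts of all genes from 4958 to 5870 at 4 h and from 4773 to 5775 between times. With scaling by library size only, 949 genes were higher and 1969 lower at 1 h, against 1242 and 1251, and 3503 were higher and 1830 lower between times, against 2320 and 2453.

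Values near 0 that did not pass changed sign. For *Ddhd2* at 1 h the log2 fold change was 0.0015 with DESeq2, 0.0025 with RLE, 0.00019 without the filter, 0.0040 with only the 2 groups, and -0.027 to 0.019 with 1 library left out, above 0 without the untreated library of mouse 1 or 4 or the 1 h library of mouse 4. For *Abhd5* at 1 h it was -0.060 to 0.0088 with 1 library left out, above 0 without the 1 h library of mouse 2 or the untreated library of mouse 3. For *Pnpla2* between times it was -0.017 to 0.088 with 1 library left out, below 0 without the 1 h library of mouse 1 or 3 or the 4 h library of mouse 1 or 2. The cause was not tested. Scaling by library size only moved the median of all genes by -0.068 at 1 h, 0.024 at 4 h and 0.093 between times. The depth limits *G0s2* and *Ces1d*, which could not be tested.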
